A study of Rattus norvegicus with 3 samples.

Results

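The 9 genes described here encode vimentin and nestin (Vim, Nes), the nuclear lamins (Lmna, Lmnb1, Lmnb2), desmin (Des), a pair of simple epithelial keratins (Krt8, Krt18) and plectin (Plec), which is not a filament protein but the linker that ties filaments to other structures. They were picked by gene symbol from the 29684 genes of the deposited table, and all 9 were found there. Each library was made from total RNA of extracellular vesicles (particles enclosed by membrane that cells release), taken from the medium of cultured rat mesenchymal stem cells of inguinal fat. The animals were wild type, and the 3 libraries, replicates 1 to 3, form 1 group, whose vesicles the study tried against premature ovarian insufficiency. There is no untreated or diseased group, no RNA of the source cells and nothing in the labels that ties a library to an animal or culture, so the comparisons are between genes within a library and the spread between libraries may be technical. The deposited counts summed to between 5219920 and 6786182 per library. Of 12 genes that mark mesenchymal stromal cells, Sparc (40.6 ± 12.5 FPKM, mean ± SD, n = 3) and Col1a1 (33.4 ± 7.69) were highest. The surface markers Nt5e (5.04 ± 0.764) and Pdgfra (5.47 ± 0.759) lay close to the 4.83 ± 0.380 FPKM of the median nuclear protein-coding gene. The test used for Vim (limma's treat test, threshold 2) called 0 of the 12, against 1.78% of all genes. Tagln (adjusted p = 0.0507), Col1a1 (0.0544) and Sparc (0.0545) fell just short of the cut of 0.05. At its lower threshold of 1 the test called 5 of the 12, against 8.78% of all genes. At that lower threshold 3 of 6 smooth muscle and 2 of 5 measured endothelial markers were also called. In the skeletal and cardiac muscle, epithelial, neural and haematopoietic lists 0 were called.

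Intermediate filaments are rope-like polymers that give cells and nuclei mechanical strength, and each cell type builds them from its own members of a large gene family. Vimentin is the main filament protein of mesenchymal cells, and nestin joins it in progenitor cells. Desmin takes that place in muscle and keratins pair to form the filaments of epithelia, whereas lamins line the inner face of the nuclear envelope in nearly all cells. Levels are the authors' FPKM (fragments per kilobase of transcript, scaled to library size), which divides by length and so allows genes to be compared.

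Vim (ENSRNOG00000018087; mRatBN7.2 chromosome 17, 76668647 to 76677187, + strand) had 100.4, 218 and 198 FPKM in replicates 1, 2 and 3, from 1414, 3697 and 3366 counts. It was the highest of the 9 genes in every library, and its lowest library was above the highest library of every other member. Against the median of 1402 olfactory and vomeronasal receptor genes, best known from sensory cells of the nose and used here as a background level, Vim was 33.7-fold, 92.3-fold and 75.6-fold higher, the receptor medians being 2.98, 2.36 and 2.62 FPKM. It exceeded 99.6% to 99.7% of nuclear protein-coding genes in each library. The difference between Vim and the receptor median was 5.49 in log2(FPKM + 1) (SE 0.31, higher in 3 of 3 libraries). With limma's treat test this exceeded a threshold of 2, equal to a ratio of 5.13 in FPKM (adjusted p = 0.00663 over all genes). Vim was 1 of 9 members called by this test, which called 529 genes, or 1.78% of all genes tested. In RNA pooled from many vesicles, fewer vesicles with a transcript and fewer copies in each cannot be told apart. Without replicate 3 the test called no gene at all (943 genes at an unadjusted p under 0.05), and Vim then had an adjusted p of 0.116; without replicate 2 it called 298 genes, Vim among them.

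**Figure D1:**
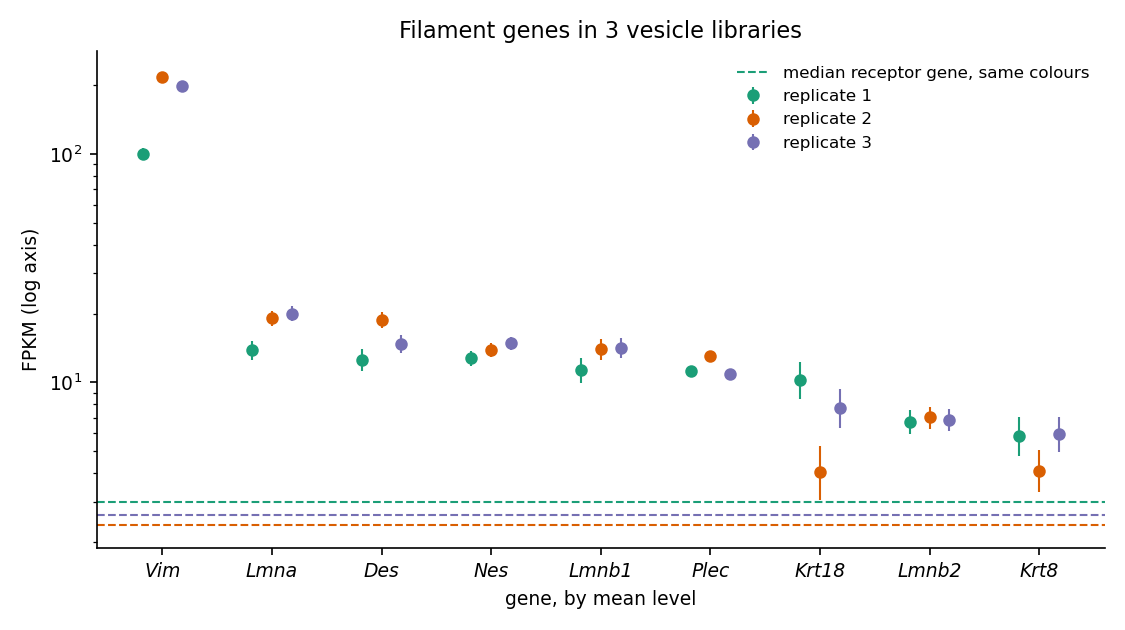
FPKM of each filament gene (log axis) in replicates 1, 2 and 3, with exact 95% Poisson intervals that cover counting error only; dashed lines mark the median receptor gene of each library in the same colours. Vim sits at 100.4 to 218 FPKM, and the other 8 genes lie between 4.04 and 19.99 FPKM.

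Nes (ENSRNOG00000018681; chromosome 2, 173438734 to 173447777, + strand) encodes the long filament protein that cannot form filaments without a partner such as vimentin. It had 12.7, 13.9 and 14.8 FPKM, from 650, 852 and 915 counts. These values were close together, with a coefficient of variation of 7.62%, and none overlapped those of Vim. Nes minus the receptor median was 2.02 in log2(FPKM + 1) (SE 0.14, higher in 3 of 3 libraries), so it was at the threshold of 2 and was not called (limma's treat test, adjusted p = 1.0). Vim exceeded Nes 7.89-fold, 15.8-fold and 13.4-fold in FPKM. The neural progenitor and glia markers that accompany Nes in the nervous system were lower: 0 of 8 were called, against 1.78% of all genes. Sox2 was at 1.7 ± 0.785 FPKM and Pax6 at 5.72 ± 1.10. The 8 markers summed to 32.02 to 37.9 FPKM per library and none was at 0 in any library. Most genes were above 0 too: 2681 of all 29684 genes and 86 of the 1402 receptor genes had a library at 0. The part of the neural markers in the level of Nes was not tested.

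Among the lamins the order was the same in every library. Lmna (ENSRNOG00000019638; chromosome 2, 173939751 to 173960423, − strand), whose transcripts give lamins A and C, had 13.8, 19.0 and 19.99 FPKM, from 424, 703 and 740 counts. Lmnb1 (ENSRNOG00000013774; chromosome 18, 50175874 to 50214502, + strand), a B-type lamin that stays attached to the membrane, had 11.3, 13.9 and 14.2 FPKM, from 256, 380 and 389 counts. Lmnb2 (ENSRNOG00000025742; chromosome 7, 8789314 to 8808665, + strand), the other B-type gene, had 6.72, 7.01 and 6.85 FPKM, from 258, 323 and 317 counts. Replicate 1 was the lowest library for all 3 genes, and the libraries of Lmnb2 lay below all libraries of the other two. Lmna exceeded Lmnb1 by 0.39 ± 0.10 on the log2(FPKM + 1) scale and Lmnb2 by 1.23 ± 0.25 (SD, n = 3), and Lmnb1 exceeded Lmnb2 by 0.84 ± 0.15. Each of these differences held in 3 of 3 libraries and was larger than its spread; the sign-flip permutation test (exact, two-sided) had p = 0.25 for each, which 3 libraries cannot go below (adjusted p = 0.417 over the 5 pairs of related members compared). Lmna was 4.63-fold to 8.05-fold above the receptor median and Lmnb2 2.25-fold to 2.97-fold. No lamin was called at the threshold of 2 (adjusted p = 1.0 each, limma's treat test).

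Des (ENSRNOG00000019810; chromosome 9, 76850982 to 76858699, + strand) encodes the filament protein of skeletal, cardiac and smooth muscle. It had 12.5, 18.7 and 14.7 FPKM, from 330, 593 and 466 counts. Its libraries overlapped those of Lmna, Nes and Lmnb1 and lay above all libraries of Lmnb2. Vim exceeded Des, a filament protein of the same sequence type, 8.03-fold, 11.6-fold and 13.5-fold. Des lay 2.14 above the receptor median (SE 0.19, log2(FPKM + 1) scale) and was not called (adjusted p = 1.0). Of 11 measured skeletal and cardiac muscle markers 0 were called, against 1.78% of all genes. The skeletal actin gene Acta1 had 15.8, 7.18 and 10.7 FPKM and the muscle regulator Myod1 8.48, 7.73 and 2.02. Replicate 2, the highest library for Des, was the lowest for Acta1. Of 6 smooth muscle markers 1 was called: Lmod1, which encodes an actin-nucleating leiomodin, at 28.3, 25.7 and 24.0 FPKM (adjusted p = 0.0296, limma's treat test). The smooth muscle actin gene Acta2, which activated stromal cells also use, had 12.9, 26.5 and 23.7 FPKM. Summed levels per library were 63.3 to 88.9 FPKM for the skeletal and cardiac list and 68.0 to 76.5 FPKM for the smooth muscle list. No marker was at 0, as was the case for most genes. The part of these markers in the level of Des was not tested.

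The keratins were the lowest of the filament classes. Krt18 (ENSRNOG00000047393; chromosome 7, 133157475 to 133161166, + strand) encodes the type I chain and had 10.2, 4.04 and 7.69 FPKM, from 113, 54 and 103 counts. Krt8 (ENSRNOG00000009779; chromosome 7, 133124203 to 133131728, − strand) encodes its type II partner and had 5.80, 4.10 and 5.94 FPKM, from 104, 88 and 127 counts. The genes are 25.7 kb apart with no other gene of the table between them, and both were lowest in replicate 2, which was the lowest library for no other member. Replicate 2 was also lowest for the receptor median (2.98, 2.36 and 2.62 FPKM) and the median nuclear protein-coding gene (5.22, 4.46 and 4.83). The same held for the summed level of 44 other keratins (325, 253 and 288 FPKM). For Krt18 the 95% Poisson interval in replicate 2, 3.04 to 5.28 FPKM, did not overlap that in replicate 1, 8.41 to 12.3. Krt8 minus Krt18 was -0.34 ± 0.37 on the log2(FPKM + 1) scale, a difference within its spread, with Krt8 higher in 1 of 3 libraries (exact two-sided sign-flip permutation test, p = 0.5). Krt18 was 1.71-fold to 3.42-fold and Krt8 1.73-fold to 2.27-fold above the receptor median, and neither was called (adjusted p = 1.0 each). In replicate 2 Krt18 exceeded 43.8% and Krt8 44.6% of nuclear protein-coding genes, which places both below the median gene of that library. Of 9 measured epithelial markers 0 were called, against 1.78% of all genes. Epcam had 8.46, 4.97 and 4.41 FPKM and Cdh1, the epithelial cadherin, 4.29, 4.15 and 5.25. The lowest of the 9, the claudin gene Cldn3, had 1.902, 2.72 and 2.69 FPKM, below both keratins in every library. The 9 markers summed to 37.9 to 48.2 FPKM per library and were above 0 in every library, as most genes were. The part of these markers in the keratin levels was not tested.

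Plec (ENSRNOG00000023781; chromosome 7, 107887764 to 107945467, − strand) encodes a very large cytolinker that binds vimentin, desmin and keratin filaments. It had 11.2, 12.99 and 10.9 FPKM, next to Lmnb1 in level. By counts it looked quite different: 1432, 1993 and 1673, against 1414, 3697 and 3366 for Vim. Lengths were derived from counts and FPKM with a library total inferred from mitochondrial genes, since the total behind the FPKM was not given. The deposited counts were 65.5%, 70.7% and 68.7% of that total in replicates 1, 2 and 3. The implied length was 16.0 kb for Plec and 1.77 kb for Vim, and it lay between 1.39 kb (Krt18) and 6.41 kb (Nes) for the others. Plec thus took 20.7% to 28.7% of the counts of the 9 genes but 3.71% to 6.08% of their summed FPKM, while Vim took 28.4% to 42.6% of the counts and 54.4% to 70.0% of the FPKM. Plec lay 1.80 above the receptor median (SE 0.14) and was not called (adjusted p = 1.0). As CPM, counts scaled to library size with length left out, Plec lay 5.11 above the receptor median. It was called there (adjusted p = 2.62e-06, limma's treat test), as were Vim, Nes, Des and the 3 lamins. That scale favours long genes and called 4012 of 29684 genes, against 529 with FPKM. Receptor genes made up 30 of these calls, against 2 with FPKM.

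**Figure D2:**
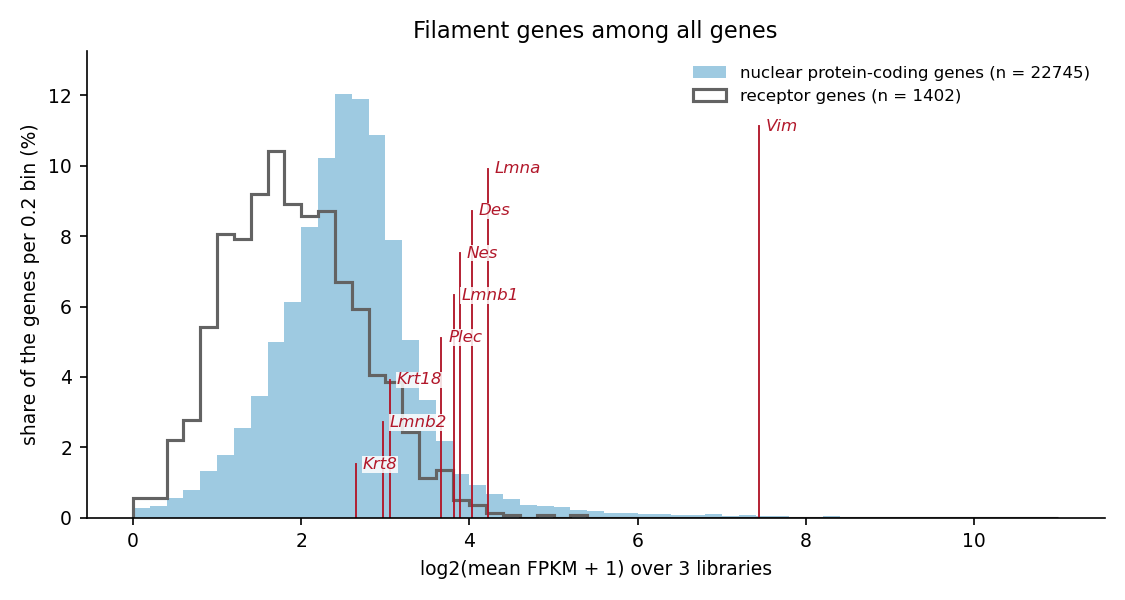
Share of genes per bin of log2(mean FPKM + 1) for 22745 nuclear protein-coding genes and 1402 receptor genes, with a red line at the mean of each filament gene (line heights only separate the names). Vim stands in the thin upper tail, and Krt8, Lmnb2 and Krt18, the lowest by mean, exceed 76.0% to 94.8% of receptor genes per library.

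By mean FPKM the order was Vim, Lmna, Des, Nes, Lmnb1, Plec, Krt18, Lmnb2 and Krt8. Of the 8 pairs of neighbours in this order, 2 differed in the same direction in every library by more than the SD of the difference: Vim over Lmna, by 3.16 ± 0.35 on the log2(FPKM + 1) scale, and Lmnb2 over Krt8, by 0.34 ± 0.27. The 5 genes from Lmna to Plec thus had no neighbours that differed beyond their spread, and neither did Plec and Krt18 (0.68 ± 0.70) or Krt18 and Lmnb2 (0.01 ± 0.62). With 3 libraries no such pair can pass the exact sign-flip permutation test, whose smallest two-sided p is 0.25. Vim exceeded each of the 8 others in 3 of 3 libraries, by 3.16 ± 0.35 (Lmna) to 4.72 ± 0.77 (Krt8). A limma fit of every gene's difference from Vim called 29478 genes lower (99.3% of those tested) and 102 higher (0.344%). All 8 members were among the lower ones, which is what nearly every gene did. Each difference in that fit carries the error of Vim itself, and on simulated data it called up to 20.4% of genes set at the level of Vim, so its p-values are not given.

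The filament classes were compared within each library as the mean log2(FPKM + 1) of their members. The mesenchymal class (Vim, Nes) was at 5.22, 5.83 and 5.81, the nuclear class (Lmna, Lmnb1, Lmnb2) at 3.48, 3.74 and 3.76, the muscle class (Des) at 3.76, 4.30 and 3.97, and the epithelial class (Krt8, Krt18) at 3.13, 2.34 and 2.96. The mesenchymal class was above the nuclear class by 1.96 ± 0.19 (SD, n = 3), above the muscle class by 1.61 ± 0.20 and above the epithelial class by 2.81 ± 0.70. The nuclear class was above the epithelial class by 0.85 ± 0.52 and the muscle class above the epithelial class by 1.20 ± 0.68, whereas the nuclear class minus the muscle class was -0.35 ± 0.19. All 6 differences kept their direction in 3 of 3 libraries and were larger than their spread, and each had p = 0.25 (adjusted p = 0.25) in the exact two-sided sign-flip permutation test, the smallest possible. The lead of the mesenchymal class was carried by Vim: with Vim alone the 3 differences were 3.70, 3.35 and 4.55, while Nes minus Des was -0.13 ± 0.25. With the members' FPKM summed per class, the nuclear class minus the muscle class was 1.25 instead of -0.35, since 3 lamin genes are then set against 1 desmin gene.

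**Figure D3:**
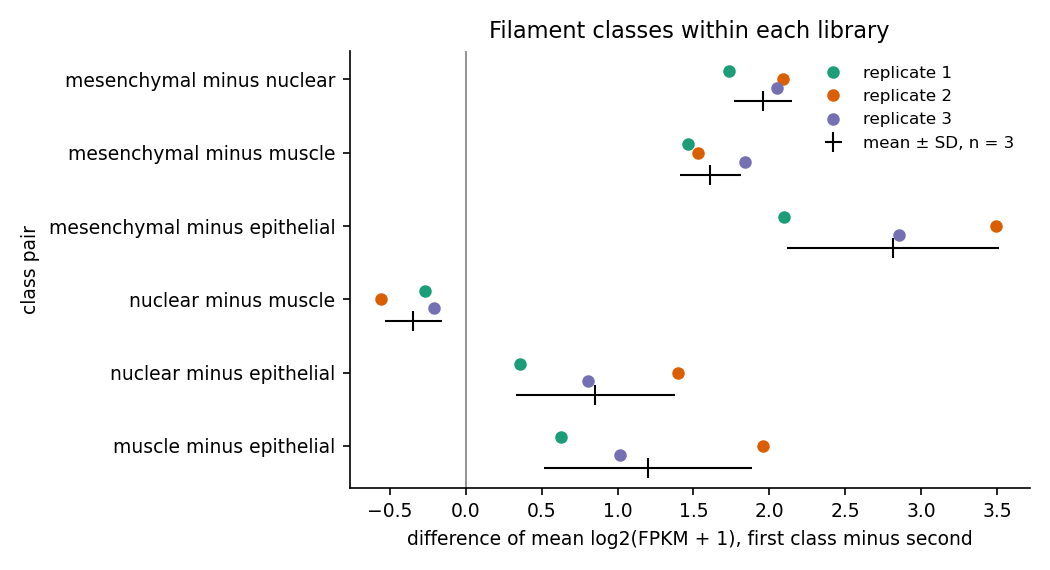
Difference of mean log2(FPKM + 1) between filament classes, first class minus second, for each of the 3 libraries (points) with mean ± SD (bars). The 3 differences of the mesenchymal class lie between 1.47 and 3.49, and only the nuclear minus muscle difference lies below 0.

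The threshold of 2 leaves little room for genes at the level of the lamins. On simulated data the test called 0% of 200 genes set 8-fold above the receptor median, 72% of those at 16-fold and 100% of those at 32-fold. The simulation raised 200 genes at a fixed dispersion of 0.05, whereas 529 genes were called in the data. These shares may therefore not carry over, but a member without a call may still lie above background. When the threshold was set at 1, which amounts to 2.38-fold in FPKM, 6 of 9 members were called by limma's treat test, against 8.78% of all genes. They were Vim (adjusted p = 0.00163), Nes (0.00958), Lmna (0.00977), Des (0.0166), Lmnb1 (0.0172) and Plec (0.0226). Lmnb2 (adjusted p = 0.879), Krt8 and Krt18 (1.0 each) were not called. The test compares each gene with the receptor median, so it does not measure the spread among receptor genes. Of the 1402 receptor genes, 29 were called at the threshold of 1 and 2 at the threshold of 2. The highest receptor gene had a mean of 39.7 FPKM, and their 99th percentile was 15.9, 13.1 and 14.9 FPKM in replicates 1, 2 and 3. The 9 genes had a median difference of 1.95 in log2(FPKM + 1) from the receptor median, against 0.60 over all genes and 0.66 over nuclear protein-coding genes.

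The rest of the filament family was measured in the same libraries. Of 59 other filament genes listed, 53 were measured, with a median of 6.16 FPKM, and 0 were called at the threshold of 2. Of all genes 1.78% were called there, so 0 of 53 does not set these genes apart. Nefm, the medium neurofilament chain of neurons, was highest at 24.4, 20.9 and 20.7 FPKM and was the only one above Lmna in mean level. It lay 2.65 above the receptor median (SE 0.12, adjusted p = 0.0719, limma's treat test). Other type III and IV genes were lower, with the neurofilament genes Nefh at 10.9 ± 0.829 FPKM and Nefl at 9.74 ± 3.95. The lens filament genes Bfsp1 and Bfsp2 had 11.3 ± 1.5 and 6.91 ± 1.31 FPKM. At the threshold of 1, 8 of 53 were called (Nefm, Nefh, Bfsp1, Krt7, Krt9, Krt13, Krt16 and Krt35), against 8.78% of all genes. The span of Krt16 (chromosome 10, 85066802 to 85171799, − strand) contains that of Krt9 (85122424 to 85127228, − strand). The calls of Krt9 and Krt16 may thus not be separate.

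Other keratin genes lay on both sides of Krt8 and Krt18. Of 44 other keratin genes measured, 25 had a higher mean than Krt8 and 13 a higher mean than Krt18. Among type I genes Krt35, a hair keratin, had 19.1, 12.2 and 17.2 FPKM, Krt9, a keratin of palm and sole skin, had 17.4, 11.7 and 14.8, and Krt13 had 10.3 ± 1.23. These 3 genes were highest in replicate 1, as was Krt18. Among type II genes Krt7, a keratin of simple epithelia, had 10.5, 19.2 and 18.2 FPKM, Krt72 9.92 ± 2.28 and Krt78 9.10 ± 1.7. Krt7 was lowest in replicate 1, as Vim was. None of the 44 was called at the threshold of 2, against 1.78% of all genes. At the threshold of 1, 5 were called, against 8.78% of all genes. By mean level, Krt35 and Krt7 exceeded Des (15.3 ± 3.16 FPKM), so desmin was within the range of keratins as well. Keratin genes include related copies and pseudogenes, and reads that match several of them are of uncertain origin.

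**Figure D4:**
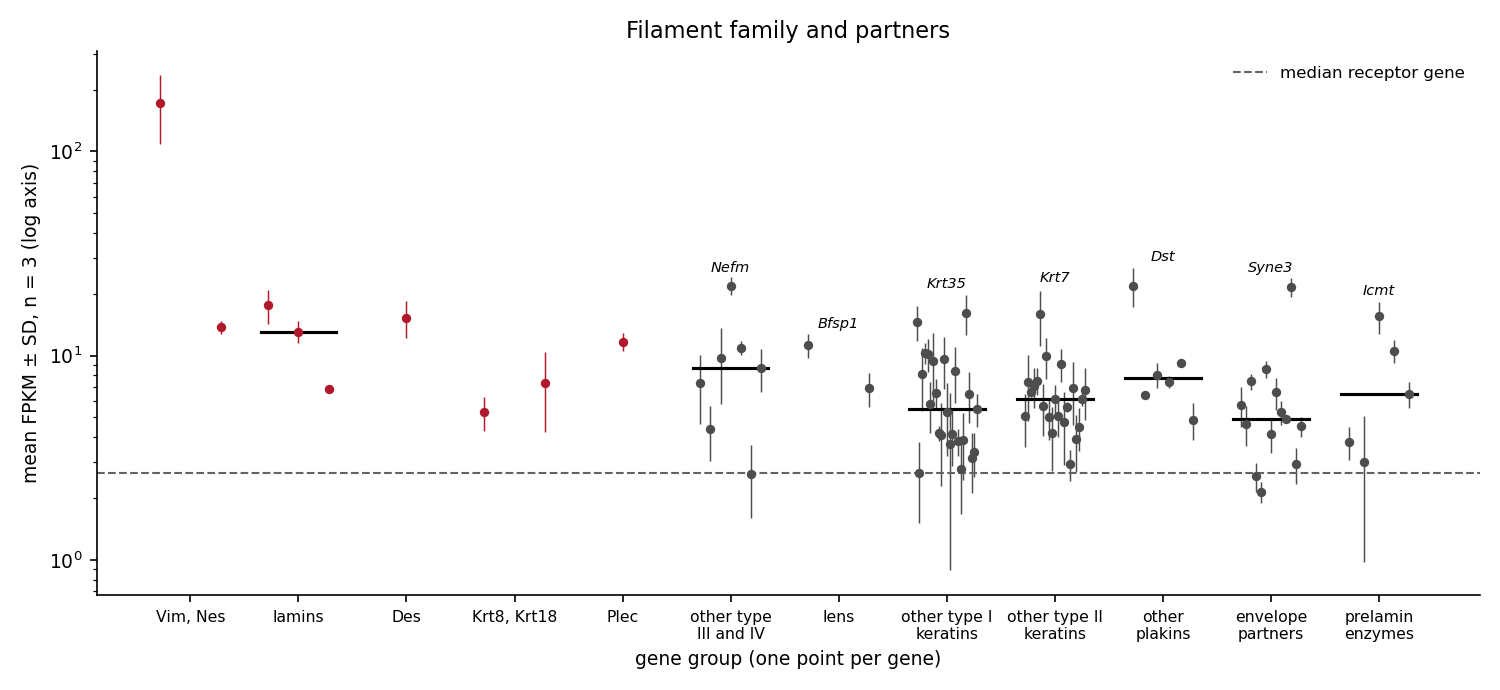
Mean FPKM ± SD over 3 libraries (log axis) for the 9 genes (red) and for other filament genes, plakins, nuclear envelope proteins and prelamin enzymes (grey). Black lines are medians of groups of 3 or more genes and the highest gene of each grey group is named. Vim is the only point above 100 FPKM, and the other red points fall within the range of the grey ones, up to Nefm at 22.02 FPKM.

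Partners of the 9 gene products were measured next to them. Among other cytolinkers, Dst, which encodes dystonin, had 16.6, 25.3 and 24.1 FPKM, above Plec in every library, while Ppl had 9.24 ± 0.171 and the desmosomal Dsp 8.05 ± 1.14. Dst lay 2.64 above the receptor median and was not called with all 3 libraries (adjusted p = 0.399, limma's treat test), but it was called without replicate 1 (2.88, adjusted p = 0.0398). Of 13 listed proteins of the nuclear envelope, which bind lamins or connect the envelope to other structures, 0 were called. Across all genes 1.78% were called, so 0 in a list this short says little, here and below. Syne3, which encodes a nesprin linking the envelope to plectin, led them at 19.3, 24.0 and 22.001 FPKM (adjusted p = 0.184), and Banf1 (8.61 ± 0.820) and Tmpo (7.48 ± 0.668) followed. The median of that list was 4.91 FPKM, near the median coding gene. Of 5 enzymes that process prelamin 0 were called, with the methyltransferase gene Icmt at 15.6 ± 2.81 FPKM and the farnesyltransferase genes Fnta at 10.6 ± 1.38 and Fntb at 6.50 ± 0.942. Of 8 filament kinases and binding partners 0 were called, led by the 14-3-3 gene Ywhaz at 22.6, 38.7 and 31.8 FPKM (adjusted p = 0.0957). The mitotic kinase genes Cdk1 and Aurkb had 8.69 ± 0.915 and 8.12 ± 3.00 FPKM. At the threshold of 1, limma's treat test called only these partners: Syne3 (adjusted p = 0.00343), Ywhaz (0.00444), Icmt (0.00487), Dst (0.00662) and Fnta (0.0442). That threshold called 8.78% of all genes.

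Replicate 1 differed from the other libraries according to level, and the filament genes followed that gradient only in part. Of the 9 genes, 6 were lower in replicate 1 than in both other libraries (Vim, Lmna, Des, Nes, Lmnb1 and Lmnb2), against 24.5% of all genes. That share is over all levels. By a looser measure, 34.6% of nuclear protein-coding genes at 5 to 10 FPKM were below the mean of replicates 2 and 3 in replicate 1. The looser share was 55.4% at 10 to 20 FPKM and 94.1% at 150 FPKM or more. On the log2(FPKM + 1) scale, replicate 1 relative to the mean of replicates 2 and 3 was -1.04 for Vim, -0.47 for Lmna, -0.39 for Des, -0.29 for Lmnb1, -0.16 for Nes and -0.08 for Plec. It was -0.04 for Lmnb2, 0.17 for Krt8 and 0.71 for Krt18. Krt18 thus lay above Krt8 and Lmnb2, which have lower means, and Lmnb1 lay below Nes, which has a higher mean. Among nuclear protein-coding genes the median was 0.13 for the 11786 genes under 5 FPKM and 0.13 for 8595 genes between 5 and 10 FPKM, -0.07 for 1639 genes between 10 and 20 FPKM, -0.53 for 469 genes between 20 and 50, and -0.85 for 85 genes of at least 150 FPKM. Of those 85 genes, 13 had a lower ratio than Vim. Vim and Lmna lay below the lower quartiles of their ranges (-0.96 and -0.41) and Krt18 above the upper quartile of its range (0.34). The receptor median was highest in replicate 1, at 2.98 FPKM. The part of this gradient in the level of any single filament gene was not tested.

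**Figure D5:**
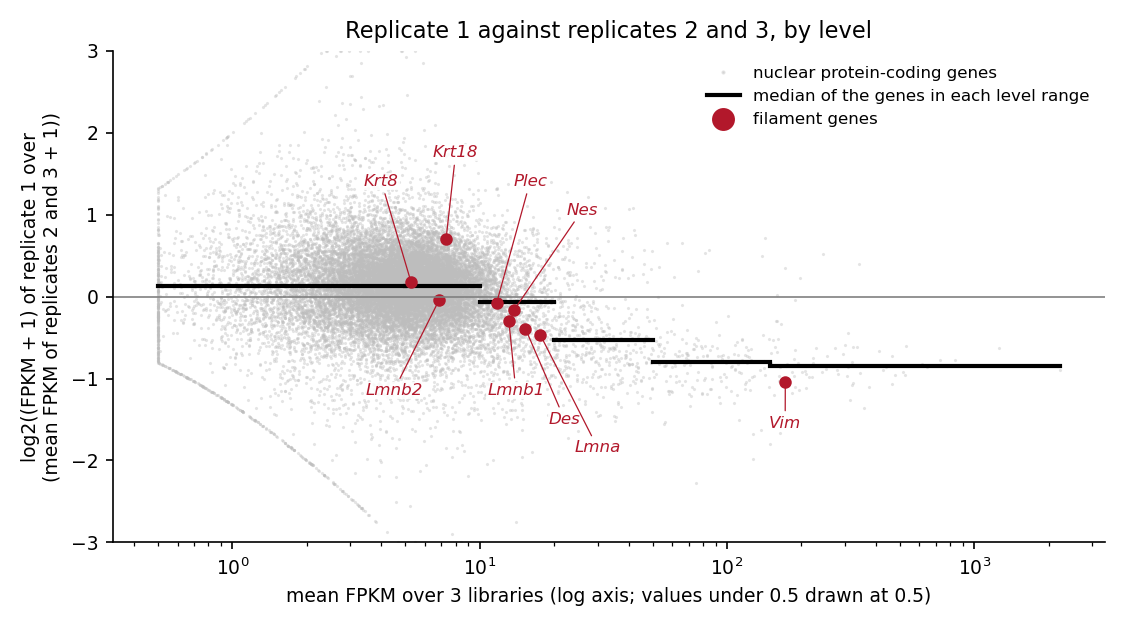
Log2 ratio of replicate 1 to the mean of replicates 2 and 3 (FPKM + 1) against mean FPKM (log axis) for nuclear protein-coding genes (grey; ratios beyond ±3 drawn at the edge), with medians per level range (black) and the 9 filament genes (red). Vim lies at -1.04, below the median of -0.85 of its range, and Krt8 and Krt18 lie above 0.

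The genes nearest Vim in level over the 3 libraries were found by Euclidean distance of log2(FPKM + 1) among 18977 nuclear protein-coding genes with a symbol. Among the nearest were Rpl13a (distance 0.17), Rps3a (0.18), Htatsf1 (0.19) and Calr (0.23). Rpl13a had 95.4, 197 and 195 FPKM and Rps3a 99.3, 233 and 220. Rpl13a and Rps3a encode ribosomal proteins, whose reads pseudogenes can share, and Calr encodes an endoplasmic reticulum chaperone. Nearest to Lmna were Rai14 (0.04), Gps2 (0.08), Epn1 (0.10), Myo18a (0.11) and Isy1 (0.12). Rai14 had 13.5, 19.0 and 19.8 FPKM. Within a distance of 0.5 there were 23 genes for Vim and 213 for Lmna, so the genes named were not set apart.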

How the data were processed

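Total RNA of extracellular vesicles was sequenced in 3 libraries of 1 group, with a stranded low-input kit and removal of ribosomal cDNA, per the labels' protocols. The tools named are cutadapt 1.9 and FastQC, with build mRatBN7.2, per the submitters' processing notes. The aligner, the counter and how strand and multiple matches were handled were not given in the sources used here. The authors deposited gene counts that were not normalized, beside FPKM values, per the file headers. A mean column was not used. Depth was 5219920, 6786182 and 6618461 counts in replicates 1, 2 and 3; the protocol names no molecular identifiers, so Poisson intervals (95%, exact) cover counting error only. No other gene of the table overlaps any of the 9 members. The chain sequences of the proteins were not used here.

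With 1 group there is no contrast for a count test. Values were log2(FPKM + 1), whose pseudocount of 1 understates changes of low genes. limma 3.58.1 (R 4.3.3) fitted all 29684 genes relative to the median receptor gene of each library (treat, threshold 2, prior variance following the mean level) and relative to Vim, with Benjamini-Hochberg adjustment and calls at an adjusted p under 0.05. Class and pair differences used exact two-sided sign-flip permutation tests. Fits were tested on simulated data (dispersion 0.05). For the background fit 200 genes were raised. For the Vim fit 14841 genes were set 2-fold, 4-fold or 8-fold below Vim and the others at its level. TMM factors came from edgeR 4.0.16. Named genes were the 9 members, the 3 highest and all called genes of each of 8 family lists, and the 5 genes nearest Vim and Lmna, of which 1 is not reported here. Marker genes named beside them were chosen after their values were seen. Other lists were markers of mesenchymal, muscle, epithelial, neural, haematopoietic and endothelial cells. Of the last 2, 0 of 7 (median 5.91 FPKM) and 0 of 5 (median 8.91 FPKM) genes were called at the threshold of 2, against 1.78% of all genes. The members, lists, background and threshold were chosen with earlier results of these data known.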

Additional observations from a re-analysis of the deposited data

How the results depend on the processing

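Of 126 recomputed differences of the 9 members from the background, 114 kept their direction and their side of the adjusted p of 0.05; 11 passed it newly, all with CPM or at a threshold of 1, and 1 no longer passed it (Vim without replicate 3). Vim was called in 13 of 14 alternatives, at differences of 4.46 to 5.90 and adjusted p-values of 4.1e-06 to 0.116. Krt8 and Krt18 were called in 0 of 14. The number of genes called, 529, was 810 with a pseudocount of 0.1, 224 with a pseudocount of 5, 4012 with CPM, 2605 at a threshold of 1 and 297 against the median nuclear protein-coding gene. Leaving out each replicate in turn gave 0 (without replicate 3) to 768 calls (without replicate 1). The other settings gave 360 to 766, including a robust single prior variance (421), which was added after the data had been seen. All 8 mean differences of members from Vim kept their direction in 11 of 11 settings. In counts, which CPM scales, Plec was above Vim in replicate 1 (1432 against 1414). Of 63 recomputed class differences 1 reversed: the nuclear minus muscle difference was 1.25 with FPKM summed per class, which sets 3 genes against 1. No paired analysis was possible because there is only 1 group of libraries. At 54 to 127 counts per library, the keratin genes had the widest counting intervals relative to their level.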
